A study of Caenorhabditis elegans with 2 samples.

Results

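Of the 30000 regions that the submitters listed as peaks and background for the transcription factor EOR-1 in Caenorhabditis elegans L3 larvae, 8763 had their summit in an intron of an autosomal protein-coding gene (29.2%, exact 95% interval 28.7–29.7). A region was counted here when its summit lay on an autosome, inside a protein-coding gene, in no exon of such a gene, and outside the window from 1000 bp upstream to 200 bp downstream of every protein-coding transcript start. The other autosomal regions comprised 6590 in promoter windows, 6826 between genes and 1368 in exons. The animals were whole L3 larvae of strain OP81, of mixed sex, with the genotype unc-119(ed3) III; wgIs81, and the immunoprecipitated protein was eGFP-tagged EOR-1 made from the transgene. There was 1 group of 2 biological replicates, both with this genotype, and no untreated or mutant group, so regions were compared with other regions and between replicates, and no difference was tested. As whole animals were used, the cells in which a region was bound cannot be named.

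EOR-1 is a BTB and zinc finger protein that resembles human PLZF and acts downstream of Ras and Wnt signalling in the nematode. Transcription factors are best known at promoters, but introns of nematode genes also hold enhancers and internal start sites. A list of candidate regions contains weak regions on purpose, since the irreproducible discovery rate (IDR) method needs them to learn where the replicates stop agreeing. Positions below are in build ce11, counted from 1. A signal is the value the authors deposited for a region, whose scale is not stated, and comes from the pooled list where no replicate is named. Whether the lists share a scale is not known, so comparisons between replicates concern the deposited values alone.

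The sequences around the strongest intronic summits are shown because the highest signals lay there and because they include the motif sites. Each line gives the plus strand from 50 bp before to 50 bp after the summit. Capitals mark the EOR-1 motif (GAGACGCAG or AGACGCAGA on either strand, 2 words that overlap in 8 bases and so are joined into a run of 10 where both occur) or, in a window with no motif, the word GAGAG on either strand. The windows of epg-9, mnk-1, the overlapping region of W06H8.6 and ulp-4 are marked for the motif, those of the strongest region of W06H8.6 and of Y56A3A.7 for GAGAG, and that of Y111B2A.12 holds neither.
Y111B2A.12: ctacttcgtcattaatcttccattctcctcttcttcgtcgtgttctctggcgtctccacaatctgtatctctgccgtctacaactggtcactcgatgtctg
epg-9: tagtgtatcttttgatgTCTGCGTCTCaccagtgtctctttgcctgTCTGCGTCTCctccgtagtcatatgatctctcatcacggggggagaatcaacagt
mnk-1: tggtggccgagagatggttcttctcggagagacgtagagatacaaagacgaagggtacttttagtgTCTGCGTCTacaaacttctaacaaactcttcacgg
W06H8.6: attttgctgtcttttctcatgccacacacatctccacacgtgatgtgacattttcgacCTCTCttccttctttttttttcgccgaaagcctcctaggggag
W06H8.6, overlapping region: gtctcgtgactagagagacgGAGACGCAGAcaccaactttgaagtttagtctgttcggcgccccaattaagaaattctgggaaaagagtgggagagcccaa
Y56A3A.7: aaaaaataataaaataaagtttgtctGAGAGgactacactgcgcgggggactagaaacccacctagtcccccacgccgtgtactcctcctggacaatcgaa
ulp-4: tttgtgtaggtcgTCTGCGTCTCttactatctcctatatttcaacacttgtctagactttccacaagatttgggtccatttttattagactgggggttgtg

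The regions are chrIII:12612512-12612681 (Y111B2A.12), chrIV:2602124-2602212 (epg-9), chrII:10552047-10552342 (mnk-1), chrV:6224439-6224734 and chrV:6224640-6224935 (W06H8.6), chrIII:11946504-11946592 (Y56A3A.7) and chrII:8130653-8130948 (ulp-4). The epg-9 window held 2 separate copies of the 10-base form, and the others with the motif held 1 site each. Across all intronic regions the motif was rare: 20 of 8763 summits had it within 50 bp (0.228%, exact interval 0.139–0.352), against 98 of 17526 windows centred 500 bp to each side of the same summits (0.559%). Among all 23547 autosomal regions 105 had it (0.446%), and among those in promoter windows 55 (0.835%). The windows to each side were not kept inside introns and can hold exon. Intronic summits lay a median of 244 bp from the nearest exon. What this adds to the contrast with the summits was not tested.

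The highest intronic signal lay in Y111B2A.12, with 248 in the pooled list, 116 in replicate 1 and 133 in replicate 2. Its summit was in intron 4 of 7, which is 7076 bp long, and 3328 bp downstream of the nearest start of the gene. The second lay in epg-9, which encodes the nematode counterpart of the autophagy protein ATG101, with 222 in the pooled list, 107 in replicate 1 and 113 in replicate 2. The third lay in mnk-1, a gene for a MAP kinase-interacting kinase that acts on the translation factor eIF4E, with 163, and with 89.7 in replicate 1 and 70.7 in replicate 2. W06H8.6 followed with 145 (62.7 in replicate 1 and 87.3 in replicate 2). Y56A3A.7 had 126, with nearly equal values of 61.4 and 61.2 in replicates 1 and 2. These 5 regions stood apart: no other intronic region reached 100, and the sixth had 80.5.

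That sixth region was also in intron 4 of Y111B2A.12, 2209 bp from the first, with 32.3 in replicate 1 and 47.8 in replicate 2. Another 3 genes held 2 of the 25 strongest intronic regions. In zfp-1, which encodes a PHD finger chromatin protein related to human AF10, the summits lay 691 bp apart in 1 intron. The stronger had 75.7 (50.5 in replicate 1 and 28.5 in replicate 2) and the weaker 65.1 (27.5 and 33.99 in replicates 1 and 2), so the replicates ordered the pair differently. In W06H8.6 the summits lay 863 bp apart in 2 introns, and the weaker had 73.2 (33.6 in replicate 1 and 44.4 in replicate 2). In mnk-1 they lay 5627 bp apart, and the weaker had 59.2 (40.6 in replicate 1 and 23.9 in replicate 2).

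The remaining genes of the first 25 included pqn-41, hmg-1.2, let-607, phf-15 and nhr-10. The pqn-41 region had 74.1, with 33.6 in replicate 1 and 42.1 in replicate 2. PQN-41 is a polyglutamine-rich protein known for its part in the death of the male linker cell. The hmg-1.2 region, in a gene for an HMG box protein of the HMGB type, had 58.5 and nearly equal replicates (29.4 and 29.1). The let-607 region had 57.8 (27.04 in replicate 1 and 25.6 in replicate 2), and its gene encodes a bZIP factor of the CREB3 type. The phf-15 region had 56.6, with 37.4 in replicate 1 and 19.8 in replicate 2. The nuclear hormone receptor gene nhr-10, which is known for its part in propionate breakdown, had the last of the 25, at 54.1 (23.97 in replicate 1 and 27.3 in replicate 2).

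The other hosts had varied roles. The region in klp-12, a kinesin gene, had 59.99 (27.1 in replicate 1 and 30.3 in replicate 2). The region in unc-108, which encodes the small GTPase Rab2, had 59.7 but was far higher in replicate 2 (44.4) than in replicate 1 (21.2). The hex-3 region, in a beta-hexosaminidase gene, leaned the other way, with 57.9 in the pooled list, 38.7 in replicate 1 and 18.7 in replicate 2. The region in pxn-1, a peroxidasin gene, had 56.1 (19.9 in replicate 1 and 42.6 in replicate 2). The gei-4 region had 55.7, with 35.2 and 27.5 in replicates 1 and 2. C17E4.6 (66.4), K10C3.4 (62.6), Y69H2.9 (57.6), F07C6.4 (56.4) and T28F4.1 (54.2) completed the list, and the least even of all was F07C6.4, with 40.1 in replicate 1 and 15.03 in replicate 2.

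**Figure D1:**
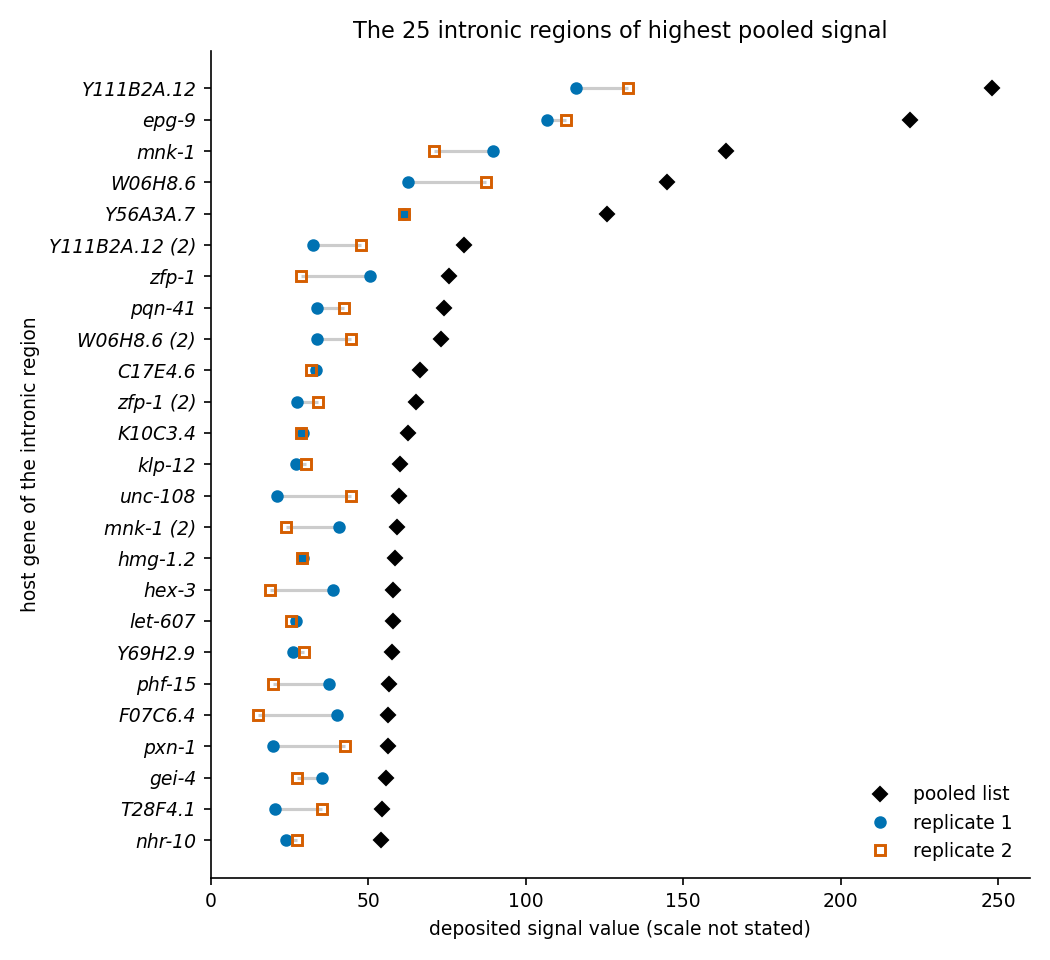
Deposited signal of the 25 intronic regions of highest pooled signal, by host gene (a number in brackets marks the second region of a gene), with the pooled value as a diamond and the replicates as a circle and a square joined by a line. The first 5 regions lie above 100 in the pooled list, and the replicates differ most in relation to their size at F07C6.4.

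These 25 regions lay in 21 genes and ranked between 31 and 267 among the 30000 pooled regions. Every one had a candidate region in both replicates, with signals of 19.9 to 116 in replicate 1 and of 15.03 to 133 in replicate 2. At 17 of them the deposited values of the replicates were within 1.5-fold of each other. The value was higher in replicate 2 at 13 and in replicate 1 at 12, so neither replicate was higher throughout. Whether the 2 lists share a scale is not known. The ranks of the 25 regions went down to 2423 in replicate 1 and to 5581 in replicate 2. Of the 25, 6 lay in the first intron of the gene, counted over the merged exons of all its transcripts. The introns were 247 to 7770 bp long with a median of 1824 bp, and the summits were 212 to 6015 bp (median 1920 bp) downstream of the nearest start of the host gene.

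The optimal IDR list of 285 peaks contained exactly these 25 regions as peaks of its own. A further region overlapped an optimal peak without being one: the overlapping W06H8.6 region printed above, chrV:6224640-6224935, with a signal of 40.7, overlaps the peak of 145 in the same intron and holds the motif that the stronger summit lacks. Its replicate values equal those of the stronger region because the same replicate regions overlap both. Thus 26 intronic regions overlapped an optimal peak (0.297%, exact interval 0.194–0.434), beside 0.858% of all autosomal candidate regions. The share was 2.02% in promoter windows, 0.586% between genes and 0.219% in exons. With a q value of 0.05 or less there were 33 intronic regions (0.377%), beside 0.866% of all autosomal regions. The median −log10 q of the intronic regions was 0.216, so most of the list is made of regions that the caller itself scored as weak.

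The last intronic region in the optimal list, in nhr-10, had 54.1. The first intronic regions outside it were in nac-3 (52.4), ogt-1 (52.4), let-607 (52.4) and C54G6.3 (52.3), all with a region in both replicates. They are named because they border the list, after their values were seen. The ogt-1 gene encodes the O-GlcNAc transferase. Replicate 1 had 28.97 at ogt-1 and replicate 2 had 20.3, and at let-607 the values were 34.8 and 16.3.

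Signals of intronic regions as a whole were low and close together. The lowest was 12.9, the lower quartile 15.7, the median 19.2, the upper quartile 24.3 and the 99th percentile 43.0. Median signals were 19.8 in promoter windows, 19.1 between genes, 18.1 in exons, 19.3 over all autosomal regions and 19.97 over the 1920 regions in introns of the X chromosome that met the same rule. The classes parted in their upper tails. A signal of 50 or more was found at 42 intronic regions (0.479%) and at 147 promoter regions (2.23%), and one of 100 or more at 5 (0.0571%) and 26 (0.395%).

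**Figure D2:**
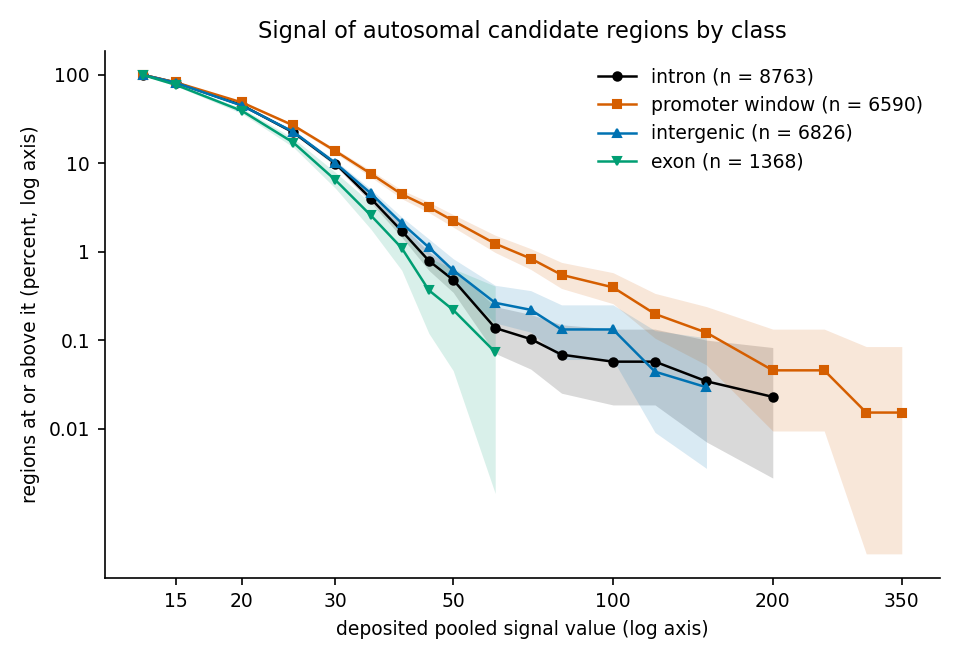
Percent of autosomal candidate regions with a pooled signal at or above the value on the horizontal axis, by class, with both axes logarithmic. Shading shows exact 95% intervals, which cover counting error only. At 20 the intronic share is 45.1%, the promoter share 48.4% and the exon share 38.9%, and at 50 the intronic share (0.479%) lies below the promoter share (2.23%).

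The promoter window has sharp edges, and median signals on each side of them were close. Among summits inside genes, those 101 to 200 bp downstream of the nearest host start, which the rule left out, numbered 229 with a median signal of 18.6. The 275 at 201 to 300 bp, which it took in, had a median of 19.0. Of the left-out summits 3 overlapped an optimal peak and of those taken in 1 did. At the upstream edge, 313 summits in introns lay 801 to 1000 bp before another start with a median of 19.9, and the 333 intronic regions at 1001 to 1200 bp had a median of 19.0. None of the former and 2 of the latter overlapped an optimal peak, and the highest signals were 49.1 and 222, the latter at epg-9. Over all intronic regions 0.297% overlapped an optimal peak, and over all regions in promoter windows 2.02%. The counts at the edges are too few to tell apart.

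Agreement of the replicates depended on the rank. In all, 6487 intronic regions overlapped a candidate region of replicate 1 (74.0%) and 6007 one of replicate 2 (68.5%). Both lists held 4221 (48.2%, exact interval 47.1–49.2), beside 48.6% of all autosomal regions, and 490 were in neither (5.59%). All of the first 100 intronic regions were found in both, 96.5% at ranks 101 to 500, 85.2% at ranks 501 to 2000, 55.5% at ranks 2001 to 5000 and 21.0% beyond. The pooled rank is made from the same reads as the replicate lists, so this decline is a description and no separate measure of agreement.

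Regions were also ranked within 1 replicate, and there a stricter rule was used. The summit had to lie in a candidate region of the other replicate, where above an overlap of 1 bp was enough. The shares below are therefore not comparable with those by pooled rank. Of the 25 strongest intronic regions of replicate 1, 21 had their summit in a candidate region of replicate 2 (84%, exact interval 63.9–95.5), but only 56.3% of those ranked 101 to 500 did. Of the 25 strongest of replicate 2, 22 had their summit in a region of replicate 1 (88%, 68.8–97.5), as did 62.0% of those ranked 101 to 500. Candidate regions of replicate 2 covered 10.5% of eligible intron and those of replicate 1 covered 10.7%. The strongest intronic regions missing from 1 replicate (chosen after their values were known) were in calu-2 (40.9, and 17.6 in replicate 2) and in abi-1 (38.6, and 32.1 in replicate 1).

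Across the 4221 intronic regions found in both replicates, the signals had a Spearman rho of 0.15, and the Pearson r of their log2 values was 0.22. In promoter windows the rho was 0.26 over 3314 regions. Only regions above each list's lower end enter, at 8.06 in replicate 1 and 6.98 in replicate 2 for intronic regions, and some neighbours share a replicate region (408 intronic regions in replicate 1 and 387 in replicate 2). Over the 25 strongest the rho was 0.23 and the r 0.64, and the first 5 of them lay above 60 in both replicates. Within the ranks below, the rho was -0.54 at 26 to 100, -0.62 at 101 to 500, -0.46 at 501 to 2000 and -0.18 at 2001 to 5000. Beyond rank 5000 it was 0.15. Ranks were set by the pooled signal, which draws on both replicates, so these values describe regions of like pooled signal. Such a choice by itself favours a negative rho, so the sign is no measure of how well the replicates agree.

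**Figure D3:**
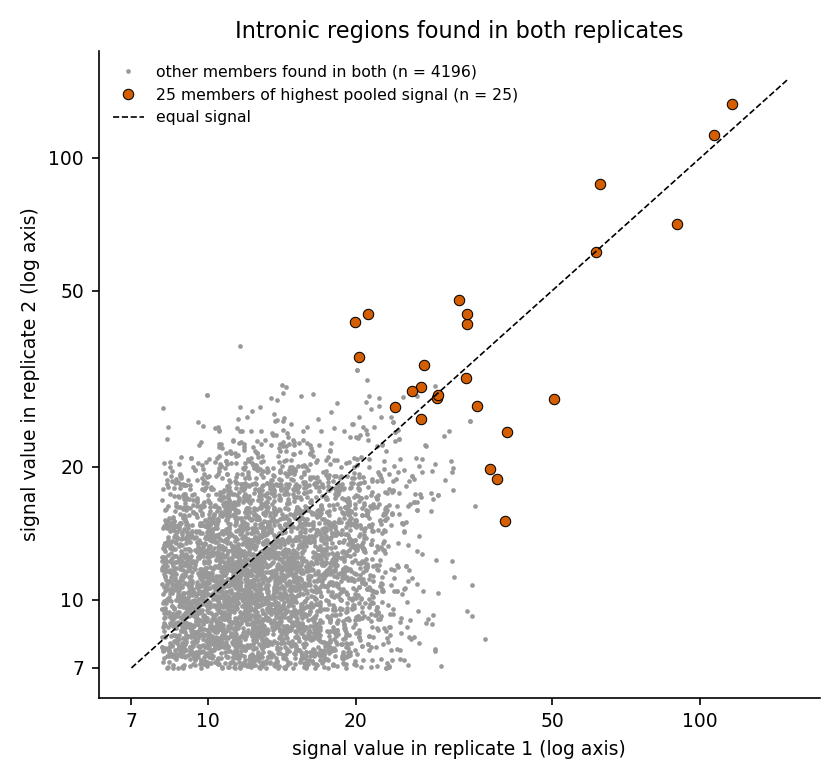
Signal in replicate 1 and in replicate 2 of the 4221 intronic regions found in both, on logarithmic axes, with the 25 of highest pooled signal in orange and equal values along the dashed line. Most regions form a round cloud between about 7 and 30, and the first 5 regions, with 61.2 or more in both replicates, lie along the dashed line.

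Intronic regions were spread over all 5 autosomes at 38.8 per 100 kb of eligible intron, which is the 22609 kb of autosomal sequence that the rule could choose. The density was highest on chromosome IV (47.8) and lowest on chromosomes II (32.1) and V (32.2), with 41.4 on chromosome I, 39.1 on chromosome III and 42.0 in introns of the X. The strongest regions did not follow this order, as 11 of the 25 lay on chromosome III, 5 on I, 4 on V, 3 on IV and 2 on II. Promoter windows held 29.5 regions per 100 kb, intergenic sequence 35.2 and exons 7.52. In the middle 50% of each autosome, where genes lie closer together, there were 40.1 intronic regions per 100 kb, and in the outer parts 37.8. In the same order the values were 46.1 and 38.0 on chromosome I, 29.6 and 34.01 on II, 36.3 and 40.8 on III, 48.01 and 47.7 on IV, and 37.9 and 28.0 on V.

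Density varied with the length and the order of introns. Introns of up to 100 bp, the usual size in this nematode, had 6.87 regions per 100 kb although there were 35721 of them, and those of 101 to 300 bp had 27.4. The density peaked at 48.1 in introns of 301 to 1000 bp and then fell to 40.2 at 1001 to 3000 bp, 35.6 at 3001 to 10000 bp and 32.0 in the 69 longer introns. Nearly all regions are 296 bp wide (8760 of 8763), so a region in the shortest introns also covers exon, and these densities count summits alone. Of the 25 strongest regions 11 lay in introns of 301 to 1000 bp and 10 in introns of 3001 to 10000 bp. First introns, counted over the merged exons of all transcripts of a gene, had 42.0 regions per 100 kb, middle ones 37.1 and last ones 37.3.

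**Figure D4:**
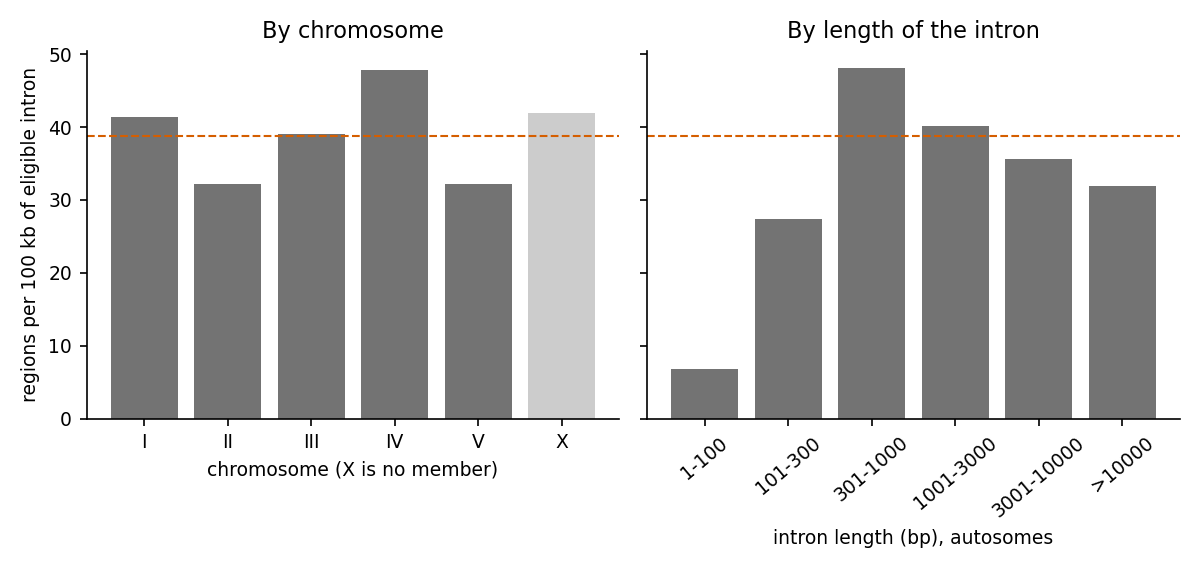
Candidate regions with an intronic summit per 100 kb of eligible intron, by chromosome (left, with the X in light grey for comparison) and, on the autosomes, by length of the intron (right). The dashed line is the autosomal value of 38.8, and the bar for introns of up to 100 bp stands at 6.87.

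In all, 3499 genes hosted an intronic region, which is 23.6% of the 14848 autosomal protein-coding genes with eligible intron (exact interval 22.9–24.3). Of these, 1702 hosted 1 region, 716 hosted 2, and 96 hosted 10 or more, with 1278 regions among them. Hosts were genes with much intron: the median eligible length was 2.13 kb in hosts and 0.452 kb in the others. The summit lay a median of 2035 bp downstream of the nearest host start and 244 bp from the nearest exon. Neighbouring regions were 2196 bp apart at the median, and 452 regions overlapped another (5.16%). The densest single intron was the first of the forkhead gene fkh-7, named after its values were seen, with 16 regions.

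The genes with the most regions had 18.7 to 50.6 kb of eligible intron and no signal above 49.9. The first was rhgf-3, with 32 regions of at most 38.8. Next came the afadin gene afd-1 with 28, of at most 36.1, and Y105C5A.15 with 27, of at most 33.4. The cox-6B gene had 25 regions, of at most 35.8, and an annotated intron of 86515 bp. Its span also contains set-27, cosa-1 and laf-1, named after their values were seen, which hosted 8, 4 and 6 regions. Regions in overlapping genes count for each of them, so the regions of cox-6B are not all its own. The LIM domain gene lim-9, the netrin receptor gene unc-5 and the p120 catenin gene jac-1 had 22 each. The highest region of lim-9 (35.8) had 29.7 in replicate 1 and 7.06 in replicate 2, that of unc-5 (30.02) had 10.8 and 17.7 in the same order, and that of jac-1 (49.9) had 27.8 and 22.3. Y52B11A.4 and the potassium chloride cotransporter gene kcc-2 followed with 21, then the lipid transfer gene lpd-3 and the Ras pathway scaffold gene soc-2 with 20. The tenth place was shared, and soc-2 is named with it. None of the regions of these genes was in the optimal list, which holds 25 of all 8763.

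Genes of the Ras to ERK pathway, in which EOR-1 is known to act, hosted intronic regions at 11 of the 19 with eligible intron (57.9%), beside 23.6% of all genes with eligible intron. These 19 genes had 128 kb of eligible intron, out of 22609 kb in 14848 genes. Hosts were genes with much intron (medians of 2.13 kb in hosts and 0.452 kb in others). Host shares of the lists here and below are not matched for intron length. None of the regions in Ras to ERK genes overlapped an optimal peak, beside 0.297% of all intronic regions. The 74 regions of these genes amounted to 57.97 per 100 kb with a median signal of 20.3, beside 38.8 per 100 kb and a median of 19.2 over all intronic regions. The highest was in ark-1, a kinase gene that restrains EGF receptor signalling, with 37.6 in the pooled list, 20.2 in replicate 1 and 17.9 in replicate 2. Wnt pathway genes were hosts at 11 of 24, with 37 regions, 47.4 per 100 kb and a median of 19.5. The highest was in lit-1, the Nemo-like kinase gene that hosted 13 regions, with 40.8 (17.7 in replicate 1 and 21.7 in replicate 2). These values were close to those of intronic regions at large in signal, and whether the density of a list differed from that of other genes was not tested.

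Median signals of the other signalling and developmental lists ran from 17.4 to 27.5. Over all genes with eligible intron 23.6% were hosts, with 38.8 regions per 100 kb. In the same unit Notch genes had 25.7, insulin to FOXO genes 21.0 and TGF-beta genes 28.8. Hox genes and cofactors had 42.0, SWI/SNF genes 36.0 and heterochronic and moulting regulators 8.58. Notch genes were hosts at 2 of 11, led by sel-8, a Mastermind-type coactivator gene, with 35.7 in the pooled list, 14.8 in replicate 2 and no region in replicate 1. Insulin to FOXO genes were hosts at 2 of 6, led by daf-16 itself with 35.7 (16.2 in replicate 1 and 22.04 in replicate 2). The other host, daf-2, named after its value was seen, held 11 of the 12 regions of this list. TGF-beta genes were hosts at 5 of 17 with a median of 27.5 over 14 regions, led by the SMAD gene daf-14 with 45.01 (28.4 in replicate 1 and 17.4 in replicate 2). Hox genes and cofactors were hosts at 4 of 8, led by lin-39 with 33.2 (17.2 and 14.5 in replicates 1 and 2). SWI/SNF genes were hosts at 4 of 9, led by the ARID gene let-526 with 42.2 (26.6 and 16.6). Heterochronic and moulting regulators were hosts at 3 of 16 with 5 regions, led by lin-28 with 22.4, which had no region in replicate 2.

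Among genes of differentiated tissues, 27 of 46 for ion channels and synaptic transmission were hosts, with 103 regions led by rab-3 (40.9, with 28.7 in replicate 1 and 16.9 in replicate 2). Axon guidance and adhesion genes were hosts at 13 of 36 with 82 regions, led by the immunoglobulin domain gene zig-10 (42.2). Actin and microtubule regulators were hosts at 21 of 42 with 75 regions, led by the flightless gene fli-1 (51.9, with 21.1 in replicate 1 and 31.4 in replicate 2). Epidermal and junction genes were hosts at 12 of 26. They were led by the ezrin, radixin and moesin gene erm-1 (51.2, with 23.6 and 15.7 in replicates 1 and 2), which also led the 3 hosts among 11 intestinal genes. Muscle genes were hosts at 9 of 32, led by the myosin chaperone gene unc-45 (35.9), and pharyngeal genes at 3 of 17, led by the troponin gene tni-4 (25.4). Over all genes with eligible intron 23.6% were hosts, and the host counts of these lists are not matched for intron length. The 46 ion channel and synaptic genes had 250 kb of eligible intron. Beside 38.8 regions per 100 kb over all genes, ion channel and synaptic genes had 41.6 and axon guidance and adhesion genes 25.6. Actin and microtubule regulators had 35.7, epidermal and junction genes 36.2 and intestinal genes 55.4. The intestinal value rests on 8 regions in 14.4 kb, and 6 of the 8 were in erm-1. Muscle genes had 19.9 and pharyngeal genes 22.2.

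For gene families, too, the values over all genes are 23.6% hosts and 38.8 regions per 100 kb. Of 109 cuticle collagen genes with eligible intron 3 were hosts, led by col-78 (23.04), with 3 regions in 41.8 kb, 7.18 per 100 kb. Of 34 cytosolic ribosomal protein genes none was, with 0 regions in only 3.97 kb. Germline genes were hosts at 1 of 29, fog-1 (19.999), with 2 regions in 22.7 kb, 8.80 per 100 kb. Chemoreceptor genes, the largest list, were hosts at 194 of 1252 with 245 regions, 28.7 per 100 kb, led by srb-15 (38.9). Nuclear hormone receptor genes were hosts at 67 of 243 with 123 regions, 43.2 per 100 kb. Of the 123 only 1, in nhr-10, overlapped an optimal peak, beside 0.297% of all intronic regions. Homeobox genes named ceh were hosts at 13 of 45, led by ceh-20 (28.4, with 23.1 in replicate 1 and no region in replicate 2). Heat shock and co-chaperone genes were hosts at 14 of 39 with 36 regions, 63.1 per 100 kb, led by the heat shock factor gene hsf-1 (35.9, with 19.3 and 16.5).

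Intronic summits were rich in A and T and in masked sequence. Within 50 bp of the summit the GC content was 24.9% ± 5.59 (SD over 8763 windows), against 33.4% in the flanking windows, which can hold exon, and 31.96% in all eligible intron. Masked letters, which mark repeats and simple sequence in the RefSeq genome (the masking tool is not given there), made up 68.9% of the summit windows, 44.2% of the flanks and 54.7% of eligible intron. In promoter windows the GC content at summits was 27.1% and the masked share 55.4%. Only 709 intronic summits (8.09%) had more GC than eligible intron on average.

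The strongest regions differed among themselves in this respect. Of the 25, 13 had more GC than eligible intron on average, against 7 of the 75 ranked 26 to 100. One of the 13, in let-607, had 32.7% GC, and the other 12 ran from 42.6% to 61.4%. The 12 below the average had 18.8% to 29.7%, so the set fell into a GC-rich and an AT-rich group with little between. All of the 6 regions of highest signal were in the GC-rich group. The word GAGAG was in 9 of the 13 and in none of the 12, and both strong regions with the motif, in epg-9 and mnk-1, were among the 13. Masked letters had a median share of 18.8% in the first group, with 6 windows free of them, and of 53.5% in the second, which includes the strongest region of zfp-1 and those of klp-12, hex-3 and F07C6.4.

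GAGAG was present at 36% of the first 25 summits (exact interval 18.0–57.5), against 26% of their flanks. At ranks 26 to 100 it was at 4 of 75 (5.33%), and over all intronic regions at 465 (5.31%), against 11.6% of the flanks. Over all autosomal regions the share was 7.22%, and in promoter windows 9.21%. Among the 25 regions of highest signal of each other class, GAGAG was at 52% in promoter windows, 52% between genes and 24% in exons. Their flanks had 12%, 20% and 16% in the same order. The lowest signals of these sets were 101, 56.99 and 36.6, beside 54.1 in introns. Mean GC at the promoter and intergenic summits was higher than at the 25 intronic ones, and at the exon summits lower. A high share at the strongest summits was thus not particular to introns. GC content and masked share move with the rank, and the flanks can hold exon. The part of these in the word counts was not tested.

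**Figure D5:**
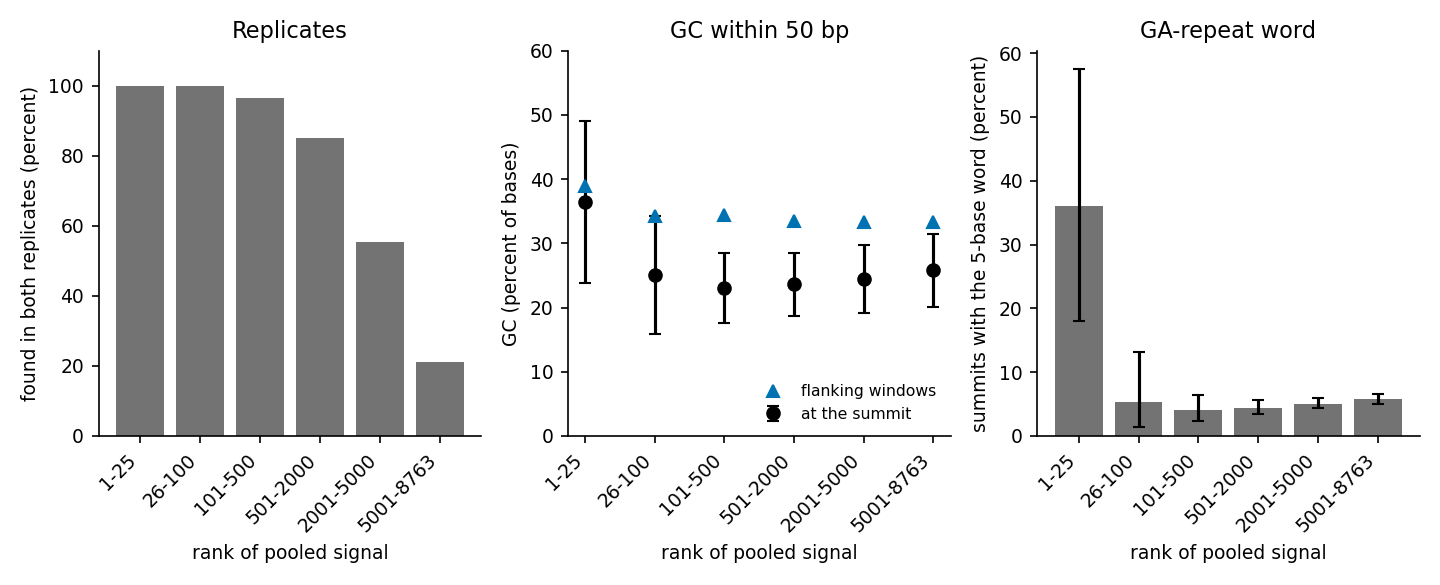
Intronic regions by rank of pooled signal: percent found in both replicates (left), GC content within 50 bp of the summit as mean and SD with the mean of flanking windows as triangles (middle), and percent of summits with GAGAG on either strand, with exact 95% intervals for counting error (right). The first 25 regions stand at 36.4% GC and 36% with the word, and the next 75 at 25.1% and 5.33%.

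Below the first 25, the motif was found with weaker regions. The strongest was in ulp-4, which encodes a SUMO protease, with 42.4 in the pooled list. It was found mainly in replicate 1 (36.5, against 8.15 in replicate 2), and its summit also lies in an annotated snoRNA gene. The psd-1 region, chosen after its value was seen, had 34.2, with 27.7 in replicate 2 and no region in replicate 1, and another region of pqn-41 had the motif and a signal of 28.1 (14.8 in replicate 1 and 12.6 in replicate 2). Of the 25 strongest intronic summits 23 lacked the motif within 50 bp, and of the 20 regions with it 3 overlapped an optimal peak (15%, exact interval 3.21–37.9), beside 0.297% of all intronic regions. The W06H8.6 region among the 3 overlapped an optimal peak without being one. A match is a description of the letters and not a bound site.

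Some intronic summits lay inside non-coding genes nested in introns. There were 136 (1.55%) with a median signal of 20.04, of which 75 were in piRNA genes, 33 in genes of the class ncRNA, 10 in antisense RNA genes, 6 in snoRNA genes and 2 in tRNA genes. The highest, named after its value was seen, was in a tRNA gene in intron 2 of the cyclin E gene cye-1, with 51.5 in the pooled list, 30.3 in replicate 1 and 18.6 in replicate 2. A gene annotated as snRNA, sup-6, in an intron of F58G1.7, also named after its value was seen, had 45.7 (26.7 in replicate 1 and 28.9 in replicate 2). One of the 136 overlapped an optimal peak, beside 0.297% of all intronic regions, and it was the overlapping W06H8.6 region.

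The genes that define the strain showed little. The eor-1 gene had no intronic region in 2104 bp of eligible intron. The unc-119 gene, mutated in these animals, had 3 weak ones, with 22.5, 14.8 and 14.7 in the pooled list, and the last of these had no region in replicate 2.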

How the data were processed

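Chromatin from whole L3 larvae was immunoprecipitated for eGFP-EOR-1 and sequenced in 2 biological replicates of 1 group, with fragments of 150 to 350 bp per the labels. Per the deposited notes, the authors called candidate regions against a control, once per replicate and once on both pooled, and drew the optimal list from them by IDR. What aligned the reads, what called the regions and which IDR threshold was used was not given in the sources used here. Every region has a deposited signal on an unstated scale and a deposited −log10 q value. Each candidate list held 30000 regions, so list length says nothing of depth. Depth is unknown, and no precision can be given to 1 signal value. Whether signals of separate lists share a scale is not known, so pooled and replicate values stand side by side without a mean.

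Lists in ce11 were used, with genes of Ensembl release 115 (assembly WBcel235, the same as ce11) and sequence from the RefSeq genome of that assembly. Lists in ce10 were not used here. Eligible intron is autosomal sequence inside a protein-coding gene, in no protein-coding exon and outside every promoter window. Introns were the gaps between the merged exons of all transcripts of a gene, numbered in the direction of transcription. A gene with internal starts can therefore have a transcript whose first intron bears a later number here. A region counted as found in a replicate, or as overlapping the optimal list, with 1 bp or more in common. For regions ranked within 1 replicate, the summit had to lie in a region of the other. The replicate region of highest signal gave the replicate's value. Where introns of several genes held a summit (116 regions), all genes counted as hosts and the one with the shortest intron was named. Words were searched on both strands within 50 bp of the summit and in flanking windows with their centre 500 bp away on each side. The flanking windows were not kept inside introns.

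Regions of 1 pooled list are not replicates of a condition and there was 1 group, so no test was made. Exact Clopper-Pearson intervals at 95% accompany shares and cover the counting error alone. The genes named are the hosts of the 25 intronic regions of highest signal and of those that overlap an optimal peak, the 10 genes with the most regions, the host of the highest region in each of 22 gene lists, eor-1 and unc-119, and the genes whose sequences are printed. Other genes are marked as named after their values were seen. The intronic regions, the lists and the rules were chosen with earlier results of these data known. Alternatives were other promoter windows, exon rules, placement rules, overlaps and word windows, the 5000 strongest pooled regions, and each replicate alone. The classification, overlap and word search were tested on simulated regions. Values were computed with pandas 2.3.3, SciPy 1.17.1 and numpy 2.4.6 under Python 3.11.15, and drawn with matplotlib 3.10.9.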

Additional observations from a re-analysis of the deposited data

How the results depend on the processing

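Of 66 recomputed values, 48 stayed within the bound set for them, which was 1.5-fold for counts, and 18 moved. The only change of sign was that of the correlation named next. Among the 5000 strongest pooled regions, the median signal was 31.5, the density 5.76 per 100 kb, the optimal share 2.00%, the share found in both replicates 91.7%, the share with the motif 0.614% and the Spearman rho of the replicates -0.23. By construction this setting keeps strong regions alone. They were chosen by a signal that draws on both replicates, so the sign of this rho is no measure of agreement. With the whole region required inside eligible intron, the density was 28.1 per 100 kb, the share in both replicates 50.96% and the share with GAGAG 4.83%. That setting left 6354 intronic regions in 2526 host genes, against 8763 in 3499 as reported. A promoter window of 500 bp upstream to 100 bp downstream gave 9768 regions in 3826 genes. One of 2000 bp upstream to 500 bp downstream gave 6416 in 2593. These counts stayed within the wide bound for counts but depend on the rule. With an overlap of at least 50% of both regions the share in both replicates was 39.0%, and with summits within 100 bp it was 32.5%. With 25 bp to each side of the summit GAGAG was at 2.69%. With 100 bp it was at 10.9% and the motif at 0.411%.

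With each replicate's own list in place of the pooled one, there were 8325 to 8675 intronic regions with a median signal of 10.6 to 11.8, at 36.8 to 38.4 per 100 kb, in 3614 to 3701 host genes. GAGAG was at 5.18% to 6.01%, the motif at 0.204% to 0.208% and the optimal share was 0.311% to 0.324%. No paired analysis was possible because there was 1 group. Depth is unknown, so absence from the list of a replicate is not shown to be absence of binding.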
